A study of Mus musculus with 4 samples.

Results

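Heat shock proteins and chaperonins were described in mononuclear cells isolated from mouse liver. The members were taken by gene symbol and were 9 of the 31053 genes counted in each library. Of these, 4 are stress-inducible cytosolic chaperones or co-chaperones (*Hspa1a*, *Hspa1b*, *Dnajb1* and *Hsph1*), 3 are abundant cytosolic chaperones (*Hsp90aa1*, *Hsp90ab1* and *Hspa8*) and 2 form the mitochondrial chaperonin (*Hspd1* and *Hspe1*). The study asked how ligands of the aryl hydrocarbon receptor (AhR) alter the immune cells of the liver in hepatitis caused by concanavalin A (ConA), a plant lectin that activates T cells. Droplet single-cell RNA sequencing was performed on 4 groups of C57BL/6 mice aged 8 to 10 weeks, with 1 library in each group. Naïve mice received no ConA, and the other groups received ConA followed by vehicle (ConA+Veh), by TCDD, a high-affinity AhR ligand (ConA+TCDD), or by FICZ, another AhR ligand (ConA+FICZ). The livers were dissociated with enzymes 24 hours after ConA, and mononuclear cells were enriched on a Percoll gradient, and the number of mice behind each library was not given in the sources used here. As each group had 1 library, every comparison below is between libraries, with no test between conditions. The intervals printed in parentheses are exact 95% intervals that cover counting error only.

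Heat shock proteins bind unfolded stretches of other proteins and help them fold, or hold them until they can. The HSP70 proteins encoded by *Hspa1a*, *Hspa1b* and *Hspa8* bind exposed hydrophobic segments, DNAJB1 delivers clients to HSP70 and stimulates its ATPase, and HSPH1 (HSP110) releases ADP from HSP70 so that the cycle can repeat. HSP90, encoded by *Hsp90aa1* and *Hsp90ab1*, completes the folding of kinases and receptors, and it also holds the unliganded AhR in the cytosol. HSPD1 (HSP60) forms a barrel in the mitochondrial matrix that HSPE1 (HSP10) closes as a lid. Heat shock factor 1 (HSF1) acts through heat shock elements, which are inverted repeats of the letters GAA. The genes it induces include *Hspa1a*, *Hspa1b*, *Dnajb1*, *Hsph1* and, above its basal level, *Hsp90aa1*, and this list is not complete. *Hspa8* and *Hsp90ab1* are expressed constitutively, and growing lymphocytes are known to hold more of the HSP90 and mitochondrial chaperones.

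Upstream sequences of members that carried the contrasts below are shown. Of these members, *Hspa1a*, *Hspa1b* and *Hsph1* are among the HSF1-induced genes named above, but *Hsph1* did not share the pattern of *Hspa1a* and *Hspa1b*. The *Hspe1* stretch held matches to heat shock element letters as well. Binding of HSF1 was not measured. The sequences were taken from RefSeq on build GRCm38.p6, which held an entry for 6 of the 9 members, and run 5′ to 3′ on the gene's own strand. Capitals mark matches to the 8-letter motifs GAANNTTC or TTCNNGAA, each of which reads the same on both strands. *Hspa1a* (chr17:34972157-34972406, minus strand) and *Hspa1b* (chr17:34959239-34959488, minus strand) are printed for the 250 bases before their start sites, and *Hsph1* (chr5:149636352-149636381, minus strand) and *Hspe1* (chr1:55088054-55088083, plus strand) for 30 bases around matches.
Hspa1a: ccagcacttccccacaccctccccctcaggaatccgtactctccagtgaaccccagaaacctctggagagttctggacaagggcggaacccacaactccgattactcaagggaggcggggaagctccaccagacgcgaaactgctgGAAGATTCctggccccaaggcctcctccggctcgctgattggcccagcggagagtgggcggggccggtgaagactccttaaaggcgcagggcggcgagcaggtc
Hspa1b: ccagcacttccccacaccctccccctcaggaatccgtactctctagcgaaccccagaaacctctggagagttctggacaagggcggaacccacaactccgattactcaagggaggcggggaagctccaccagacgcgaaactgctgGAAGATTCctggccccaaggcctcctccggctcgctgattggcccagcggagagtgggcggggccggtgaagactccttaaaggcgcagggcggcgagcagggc
Hsph1: tgggtagaatctTTCTCGAAggctcgagaa
Hspe1: gtccgTTCTAGAACCTTCCGGAAggccccg

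The *Hspa1a* and *Hspa1b* stretches differed at 3 of the 250 bases, and each held 1 match, which began 104 bases before the start site. Their coding sequences had 1923 and 1926 bases and were 99.4% identical, with 11 differing positions in the alignment. Reads of the pair could therefore be assigned to either gene or dropped by the counting, which cannot be checked from the counts. Their sum, called *Hspa1* below, is given beside the separate values. It does not recover dropped reads, so levels and shares of *Hspa1* may be too low. *Hspe1* held 3 overlapping matches within 18 bases, and *Hsph1* held 3 matches in its window of 250 bases before and 50 after the start site. Of 32851 such windows in the RefSeq table, 15.1% held at least 1 match of either kind, and 0.256% held 3 or more. *Hspd1* and *Hspe1* lie head to head on chromosome 1, and the second of the *Hspd1* windows overlapped that of *Hspe1* by 285 bases and held the same 3 matches. The windows of *Dnajb1* held no match to these letters.

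Values given in a row below follow the order Naïve, ConA+Veh, TCDD, FICZ. In total 2086, 2779, 1880 and 2555 cells were deposited, with a median of 2161, 3984, 3761.5 and 3147 unique molecular identifiers (UMIs) per cell. Between 4 and 15 cell barcodes were shared by each pair of libraries, at most 0.719% of the smaller library. Cells were placed in a class when they held at least 2 distinct markers of it and at least 2 more than of any other class. This gave 536, 890, 717 and 595 T cells and 1092, 847, 425 and 798 B cells, and all 12 markers of the T or NK list were found in the T cells of every library, as were all 12 markers of the B list in the B cells. T cells with UMIs of at least 2 of 8 cell cycle genes were called cycling, and made up 2.99%, 54.3%, 36.0% and 36.5%. Hepatocyte-gated cells numbered 197 in ConA+FICZ and at most 27 elsewhere, and mononuclear phagocytes numbered 69, 225, 38 and 204. Levels are given as UMIs of a gene per 1000000 UMIs of the class (CPM). The 5′ assay counts a molecule once whatever its length, so no division by length was made.

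In T cells the inducible HSP70 genes were highest in the Naïve library and lowest in the ConA+TCDD library, while the HSP90 and mitochondrial chaperones were higher in all 3 libraries of ConA-treated mice than in Naïve. *Hspa1a* stood at 117 CPM in Naïve (229 UMIs), 17.1 CPM in ConA+Veh (157 UMIs), 3.36 CPM in ConA+TCDD (23 UMIs) and 15.5 CPM in ConA+FICZ (110 UMIs). *Hspa1b* stood at 64.9, 8.92, 2.19 and 9.74 CPM in the same order, from 127, 82, 15 and 69 UMIs. For both genes the intervals of ConA+Veh and ConA+FICZ overlapped, and those of Naïve and ConA+TCDD overlapped with no other library. *Dnajb1*, the co-chaperone of HSP70, was at 193 CPM in Naïve and at 79.7, 74.3 and 74.5 CPM after ConA, where the intervals of the 3 libraries overlapped. *Hsph1*, the nucleotide exchange factor, had another order, with 90.0 CPM in Naïve, 121 CPM in ConA+Veh, 107 CPM in ConA+TCDD and 141 CPM in ConA+FICZ.

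**Figure D1:**
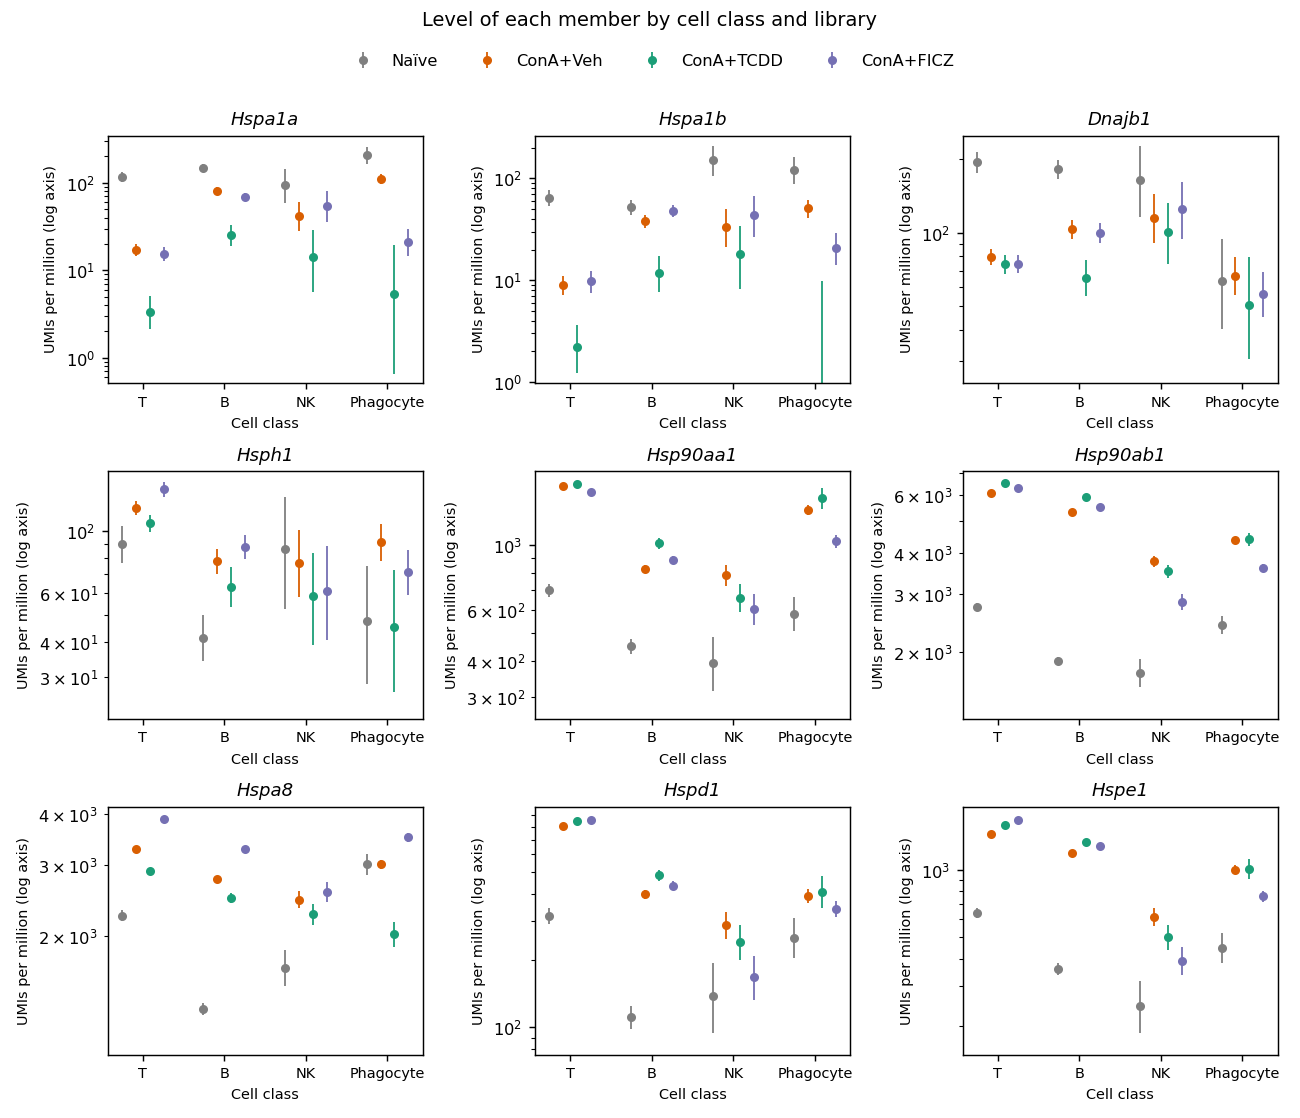
Level of each of the 9 genes in T cells, B cells, NK cells and mononuclear phagocytes, in CPM on a log axis, with 1 point per library and exact 95% Poisson intervals as bars. *Hspa1a* and *Hspa1b* had their lowest T and B cell levels in ConA+TCDD, while *Hsp90ab1*, *Hspd1* and *Hspe1* were higher after ConA than in Naïve in T and B cells. *Hspa1b* had 0 UMIs in the phagocytes of ConA+TCDD, where an upper limit alone is drawn.

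For the abundant cytosolic and mitochondrial members, Naïve was the lowest library in T cells. The level of *Hsp90ab1*, the constitutive HSP90, in T cells was 2747 CPM in Naïve, 6097 CPM in ConA+Veh, 6529 CPM in ConA+TCDD and 6286 CPM in ConA+FICZ. The inducible HSP90 gene *Hsp90aa1* was at 699, 1593, 1621 and 1527 CPM. Over all T cells, both genes were thus more than 2-fold higher in each ConA library than in Naïve, whereas *Hspa8*, the constitutive HSP70, was at 2247, 3282, 2894 and 3874 CPM and so differed less. The mitochondrial barrel gene *Hspd1* was at 317 CPM in Naïve and at 809, 847 and 853 CPM after ConA. Its lid partner *Hspe1* was at 640 CPM in Naïve and at 1436, 1585 and 1670 CPM after ConA. *Hsph1*, *Hspa8* and *Hspe1* had their highest T cell level in ConA+FICZ, with an interval apart from those of the other 3 libraries.

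Set against Naïve, ConA+Veh T cells had *Hspa1a* 6.86-fold lower (log2 ratio −2.78, −3.08 to −2.48) and *Hspa1b* 7.28-fold lower (−2.86, −3.28 to −2.45). *Dnajb1* was 2.42-fold lower (−1.28, −1.46 to −1.09) in CPM, but not per cell, where it had 0.705 UMIs in Naïve and 0.824 in ConA+Veh. *Hsph1* was slightly higher (log2 ratio 0.43, 0.20 to 0.67). *Hspd1* showed the largest ratio in the other direction, 2.55-fold higher (1.35, 1.23 to 1.47). *Hsp90aa1* (1.19, 1.11 to 1.27), *Hspe1* (1.17, 1.08 to 1.25) and *Hsp90ab1* (1.15, 1.11 to 1.19) had log2 ratios close to each other, and *Hspa8* had the smallest of this group (0.55, 0.50 to 0.59). In all, 4 of the 9 members were at least 2-fold higher and 3 were at least 2-fold lower. Of the 7308 genes counted, with at least 100 UMIs in the pair of libraries, 8.18% were at least 2-fold higher and 10.0% at least 2-fold lower. The median log2 ratio was 0.55 over the members and −0.06 over all genes counted. The share of mitochondrially encoded UMIs, a sign of cell quality, differed as well, with a median per T cell of 4.52% in Naïve and 2.78% in ConA+Veh. In Naïve T cells, *Hspa1* stood at 158, 251 and 311 CPM and the mitochondrial chaperone sum at 1131, 420 and 249 CPM in cells with under 5%, 5% to 10% and over 10% of such UMIs. In ConA+Veh the same bins had 25.8, 39.4 and 18.2 CPM of *Hspa1* and 2371, 1221 and 1235 CPM of the mitochondrial sum. In CPM, *Hspa1* was lower and the mitochondrial sum higher in ConA+Veh in each bin. The Naïve bin over 10% held 37 cells, with 20 UMIs of *Hspa1* and 16 of the mitochondrial pair. Depth and cycling share were not held equal in the bins, and the part of cell quality in the contrast was not tested.

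**Figure D2:**
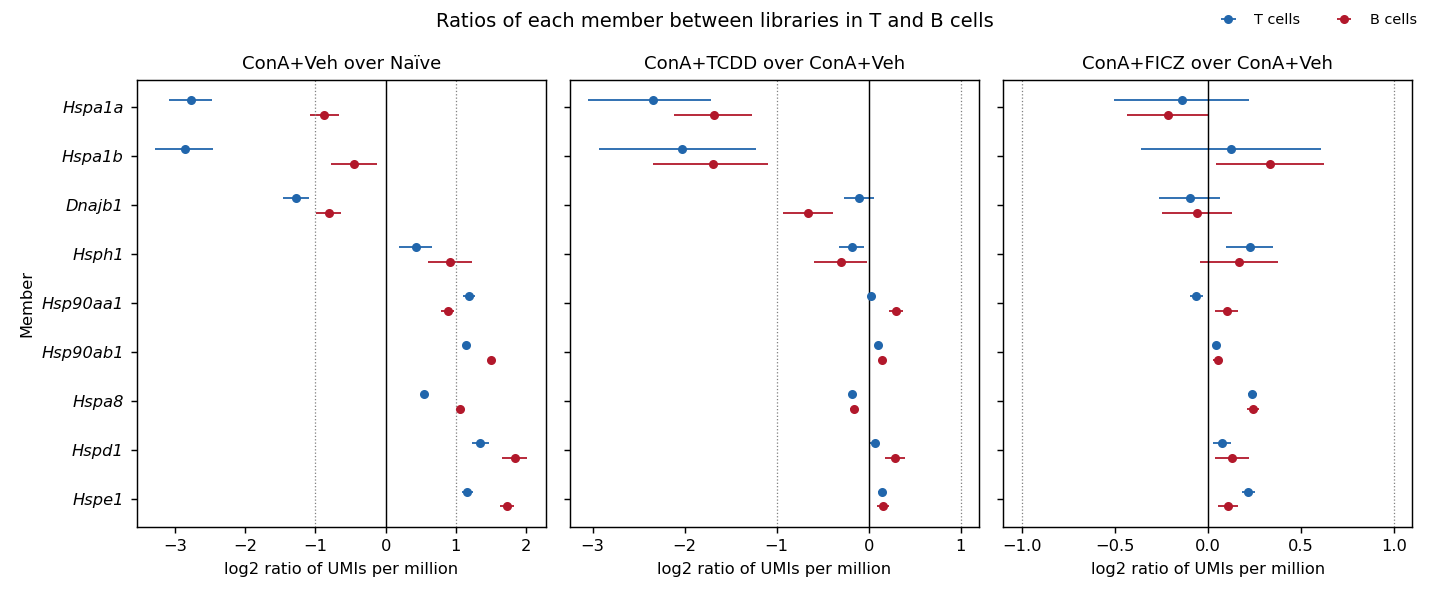
Log2 ratio of CPM for each member in T and B cells in the 3 comparisons, with exact 95% intervals and a line at 0. In T cells *Hspa1a*, *Hspa1b* and *Dnajb1* lie below 0 in ConA+Veh over Naïve (per cell, *Dnajb1* lies above 0) and the HSP90 and mitochondrial genes above it, and in ConA+TCDD over ConA+Veh *Hspa1a* and *Hspa1b* lie below −1 in both cell types.

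Summed over each group, the same T cells showed opposite directions in CPM. *Hspa1* was at 182 CPM in Naïve, 26.0 CPM in ConA+Veh, 5.55 CPM in ConA+TCDD and 25.3 CPM in ConA+FICZ, and was 7.0-fold lower in ConA+Veh than in Naïve (log2 ratio −2.81, −3.05 to −2.57). All 4 stress-inducible genes together were at 465, 227, 187 and 241 CPM (log2 ratio of ConA+Veh over Naïve −1.04), a direction that turned without the correction for depth, where the mean UMIs per cell gave 0.46. The mitochondrial pair was at 958, 2245, 2431 and 2523 CPM and was 2.34-fold higher in ConA+Veh than in Naïve. The 3 abundant cytosolic genes together were 1.93-fold higher. *Hspa1* stayed lower and both other groups stayed higher under each of the 9 alternatives tried, the mean UMIs per cell included.

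In CPM, cycling cells held less *Hspa1* and more HSP90 and mitochondrial chaperone RNA than the other T cells of the same library. Cycling T cells were also deeper, with a median of 12119 against 3995 UMIs in ConA+Veh and 19584 against 5366.5 in ConA+FICZ. The call of cycling cells was not corrected for depth. In ConA+Veh, *Hspa1* was at 9.61 CPM in cycling and 77.4 CPM in other T cells (log2 ratio −3.01, −3.44 to −2.59). The corresponding levels were 2.37 and 10.6 CPM in ConA+TCDD and 13.4 and 43.3 CPM in ConA+FICZ, so the order was the same in the 3 libraries. Those of ConA+FICZ came from 57 UMIs in 217 cycling and 122 UMIs in 378 other T cells. Per cell they thus differed by less than in CPM. *Hsp90aa1* was higher in cycling T cells in all 4 libraries, with log2 ratios from 0.65 in ConA+FICZ to 1.46 in Naïve, where 16 cells were cycling. The mitochondrial sum was at 2431 CPM in cycling and 1664 CPM in other T cells of ConA+Veh. With cycling cells left out, T cells of ConA+Veh still had less *Hspa1* than Naïve (77.4 against 214 CPM, log2 ratio −1.46, −1.74 to −1.20), but the ratio was smaller than over all T cells. The mitochondrial sum outside the cycle stayed higher in ConA+Veh than in Naïve (1664 against 791 CPM, log2 ratio 1.07). *Hsp90ab1* there stayed more than 2-fold higher (1.08, 1.02 to 1.13), but *Hsp90aa1* was less than 2-fold higher (0.59, 0.47 to 0.70).

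**Figure D3:**
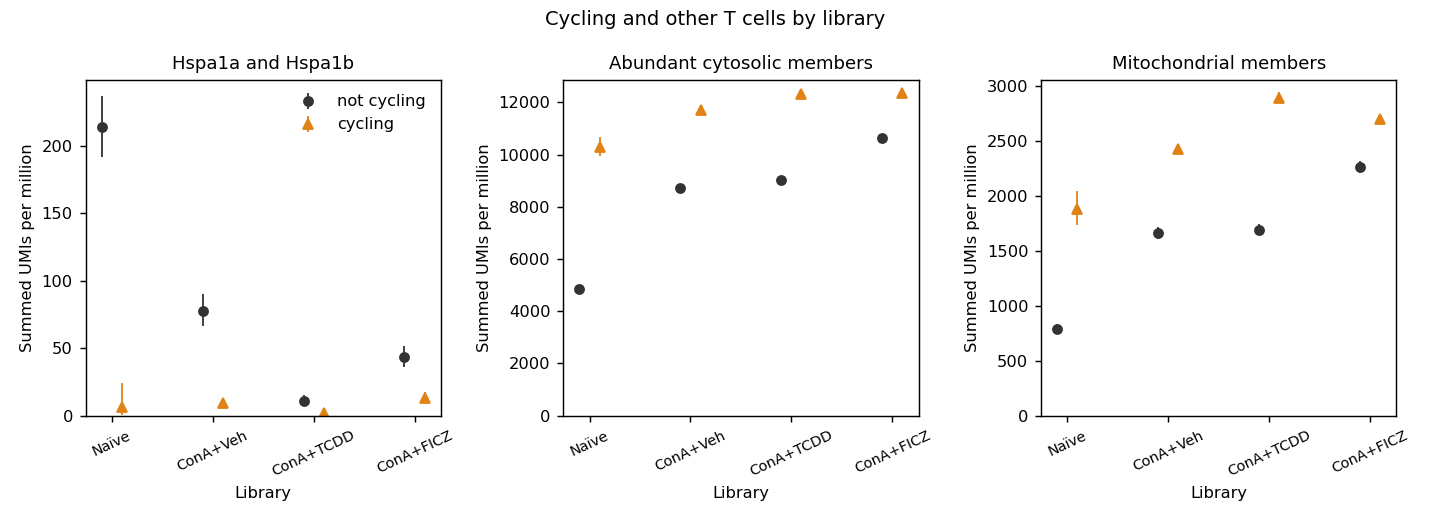
Levels in cycling and other T cells of each library, in CPM with axes from 0 and exact 95% intervals, for the sums of *Hspa1a* and *Hspa1b*, of the 3 abundant cytosolic genes and of the mitochondrial pair. In every library *Hspa1* was lower and both other sums were higher in cycling than in other T cells, and outside the cycle *Hspa1* was lowest in ConA+TCDD, at 10.6 CPM.

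Within T cells the contrast between Naïve and ConA+Veh differed in size between subsets. In CD8 T cells, *Hspa1* was at 221 CPM in Naïve, 10.4 CPM in ConA+Veh, 2.55 CPM in ConA+TCDD and 25.7 CPM in ConA+FICZ, which made ConA+Veh 21.3-fold lower than Naïve. Their cycling share was 1.72%, 70.9%, 51.6% and 54.2%, against 7.23%, 58.0%, 57.8% and 30.5% in CD4 T cells. Outside the cycle, *Hspa1* in CD8 T cells was at 243, 38.8, 3.19 and 53.6 CPM. The contrast between Naïve and ConA+Veh was thus smaller there, and the intervals of ConA+Veh and ConA+FICZ overlapped. In CD4 T cells the levels were 177, 18.1, 0.905 and 4.50 CPM, from 63, 26, 1 and 5 UMIs. In the remaining T cells they were 149, 64.4, 12.6 and 36.3 CPM. ConA+FICZ thus stood above ConA+Veh in CD8 T cells (log2 ratio 1.31, 0.82 to 1.81) and below it in CD4 T cells (−2.01) and the remaining T cells (−0.83). Differences between subsets were not tested.

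In B cells the order of the libraries for *Hspa1* was partly the same as in T cells, and the mitochondrial, *Hsp90ab1* and *Hspa8* ratios of ConA+Veh over Naïve were larger, but that of *Hsp90aa1* was smaller. *Hspa1a* was at 147 CPM in Naïve (398 UMIs), 80.2 CPM in ConA+Veh (394 UMIs), 25 CPM in ConA+TCDD (55 UMIs) and 69.2 CPM in ConA+FICZ (308 UMIs). *Hspa1b* was at 52.1, 38.1, 11.8 and 48.1 CPM. *Dnajb1* was at 181, 103, 65.5 and 99.3 CPM, and *Hsph1* at 41.4, 78.0, 63.2 and 87.6 CPM. ConA+TCDD was therefore the lowest library for *Hspa1a*, *Hspa1b* and *Dnajb1*, and Naïve the lowest for *Hsph1*, as in T cells except that *Dnajb1* there had overlapping intervals in the 3 ConA libraries.

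*Hsp90ab1* in B cells was at 1883 CPM in Naïve, 5331 CPM in ConA+Veh, 5912 CPM in ConA+TCDD and 5533 CPM in ConA+FICZ. *Hsp90aa1* was at 448, 827, 1015 and 887 CPM, and *Hspa8* at 1324, 2771, 2485 and 3281 CPM. As in T cells, *Hspa8* was lowest after ConA in the TCDD library and highest in the FICZ library. *Hspd1* was at 111, 397, 482 and 435 CPM and *Hspe1* at 358, 1185, 1322 and 1280 CPM, so that both mitochondrial genes had their highest B cell level in ConA+TCDD, although their intervals there overlapped those of ConA+FICZ.

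Against Naïve, ConA+Veh B cells had *Hspd1* 3.58-fold higher (log2 ratio 1.84, 1.66 to 2.02) and *Hspe1* 3.31-fold higher (1.73, 1.63 to 1.83). *Hsp90ab1* (1.5, 1.46 to 1.55), *Hspa8* (1.07, 1.01 to 1.12), *Hsph1* (0.91, 0.61 to 1.23) and *Hsp90aa1* (0.88, 0.79 to 0.98) followed. In all, 4 of the 9 members were at least 2-fold higher, beside 7.48% of the 6231 genes counted, and 0 were at least 2-fold lower, beside 14.5%. The median log2 ratio was 0.91 over the members and −0.19 over all genes counted, so the library-wide median itself lay below 0. *Hspa1a* (−0.87, −1.08 to −0.67), *Dnajb1* (−0.81) and *Hspa1b* (−0.45, −0.77 to −0.13) were below 0 in CPM. Per cell, these directions turned, with 0.494 UMIs of *Hspa1* in Naïve and 0.686 in ConA+Veh, and 0.449 and 0.599 UMIs of *Dnajb1*. The *Hspa1* ratio also turned, from −0.75 to 0.39, when B cells with a UMI of another class's marker were left out, which kept 501 of 1092 cells in Naïve and 180 of 847 in ConA+Veh. The B cell direction for *Hspa1* between Naïve and ConA+Veh thus depended on the scale and on the cells kept.

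TCDD and FICZ were each set against ConA+Veh, so that the comparisons below share that library. In T cells, *Hspa1a* was 5.09-fold lower in ConA+TCDD than in ConA+Veh (log2 ratio −2.35, −3.05 to −1.71) and *Hspa1b* 4.07-fold lower (−2.03, −2.93 to −1.22). Over all T cells, the other 7 members had log2 ratios between −0.18 for *Hsph1* and *Hspa8* and 0.14 for *Hspe1*. Of the 8 members counted, 1 was at least 2-fold lower (*Hspa1a*; *Hspa1b* had under 100 UMIs in the pair and was not counted), beside 0.568% of 7920 genes, and 0 were at least 2-fold higher, beside 0.253%. Outside the cycle, *Hsph1* had −0.70 (−0.98 to −0.42) and *Hspa8* −0.38 (−0.43 to −0.33), against 0.07 and −0.05 in cycling T cells. The remaining members outside the cycle lay between −0.22 for *Dnajb1* and 0.24 for *Hsp90ab1*, apart from *Hspa1a* and *Hspa1b*. In ConA+FICZ the log2 ratios over all T cells were −0.14 (−0.50 to 0.22) for *Hspa1a* and 0.13 (−0.36 to 0.61) for *Hspa1b*, and 0.24 for *Hspa8*, 0.22 for *Hsph1* and 0.22 for *Hspe1*. None of the 9 members was 2-fold higher, beside 0.375% of 8001 genes, or 2-fold lower, beside 0.850%. T cells of ConA+FICZ outside the cycle had less *Hspa1a* (−0.76, −1.20 to −0.32) and *Hspa1b* (−0.97, −1.55 to −0.40) than those of ConA+Veh. Cycling T cells had −0.02 (−0.70 to 0.64) for *Hspa1a* and 1.55 (0.55 to 2.60) for *Hspa1b*.

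In B cells, *Hspa1a* was lower in ConA+TCDD than in ConA+Veh (log2 ratio −1.68, −2.12 to −1.27), as was *Hspa1b* (−1.69, −2.34 to −1.09). Both passed 2-fold, beside 1.41% of 5668 genes, and 0 members were at least 2-fold higher, beside 0.353%. *Dnajb1* (−0.66, −0.93 to −0.39) and *Hsph1* (−0.30, −0.59 to −0.02) were lower by less, and *Hsp90aa1* (0.30, 0.22 to 0.37) and *Hspd1* (0.28, 0.17 to 0.39) were higher. In ConA+FICZ, *Hspa1a* had a log2 ratio of −0.21 (−0.43 to 0.01), *Hspa1b* 0.34 (0.05 to 0.63) and *Hspa8* 0.24. No member passed 2-fold in either direction, beside 0.786% of 6492 genes higher and 0.940% lower.

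The lower *Hspa1* of ConA+TCDD was kept under each of the 9 alternatives, with log2 ratios from −2.87 to −1.53 in T cells and from −3.07 to −1.30 in B cells. All of these alternatives compare UMI levels, to which a few cells with many UMIs can contribute much. The shares of positive T cells after thinning, given below, had overlapping intervals in ConA+Veh and ConA+TCDD. Markers of other classes moved between these libraries. In the B cells, the summed level of the 10 neutrophil markers was 32.1 CPM in Naïve, 190 CPM in ConA+Veh, 21.4 CPM in ConA+TCDD and 202 CPM in ConA+FICZ, from 8, 10, 6 and 9 markers with a UMI. In the T cells, the 6 granulocyte progenitor markers summed to 0, 84.0, 144 and 0.424 CPM. With cells holding any marker of another class left out, *Hspa1* in ConA+TCDD over ConA+Veh was −1.53 in T cells and −3.07 in B cells.

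Innate and non-immune cells had other levels. In NK cells, *Hspa1a* was at 94.7, 42.2, 14.1 and 54.6 CPM, from 22, 29, 7 and 25 UMIs, and *Hspa1b* at 151, 33.5, 18.1 and 43.7 CPM. *Hspe1* in NK cells was at 245, 614, 498 and 391 CPM and *Hspd1* at 138, 288, 241 and 168 CPM. The mitochondrial pair of NK cells thus stood lower in ConA+FICZ than in ConA+Veh (log2 ratio −0.69 for the sum), the opposite of T cells (0.17) and B cells (0.12). The ratios of T and B cells were small. With cells weighted equally, the sign turned for the B cell sum and for *Hspd1* in T and B cells. *Hsp90ab1* of NK cells followed the same order, with 1731, 3777, 3521 and 2836 CPM. The cycling share of NK cells was 0.893%, 12.8%, 11.2% and 2.99%, so it too was lower in ConA+FICZ than in ConA+Veh, and its part in these differences was not tested.

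In mononuclear phagocytes, *Hspa1a* was at 205 CPM in Naïve (78 UMIs), 111 CPM in ConA+Veh (209 UMIs), 5.34 CPM in ConA+TCDD (2 UMIs) and 21.3 CPM in ConA+FICZ (34 UMIs). *Hspa1b* was at 121, 50.8, 0 and 20.7 CPM, and its 0 UMIs in ConA+TCDD, read at a floor of 3 counts, gave a log2 ratio of −2.67 or lower. Both AhR ligand libraries were therefore below ConA+Veh in phagocytes, whereas over all T cells and over all B cells ConA+FICZ was close to ConA+Veh. T cells outside the cycle had less *Hspa1* in ConA+FICZ than in ConA+Veh (log2 ratio −0.84, −1.19 to −0.50). Cycling T cells had 0.48 (−0.06 to 1.01). The log2 ratio for *Hspa1* in ConA+FICZ over ConA+Veh was −1.94 in phagocytes, with *Hspa1a* at −2.37 (−2.94 to −1.85) and *Hspa1b* at −1.29 (−1.91 to −0.71). Neutrophil markers in the phagocyte gate summed to 248, 1304, 384 and 683 CPM, and granulocyte progenitor markers to 103, 345, 542 and 493 CPM. The gate's own markers summed to 5263, 6881, 3428 and 8827 CPM, so its make-up may differ between libraries. The part of these differences in the result was not tested. Cycling cells made up 4.35%, 27.1%, 31.6% and 12.7% of the phagocytes. *Hspa8* of phagocytes was at 3007, 3004, 2022 and 3497 CPM, so ConA+Veh did not stand above Naïve as it did in lymphocytes.

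Neutrophils had lower levels of the abundant cytosolic and the mitochondrial members than T, B or NK cells in every library. *Hsp90ab1* was at 1471 CPM in the 105 neutrophils of ConA+Veh and at 340 CPM in the 264 of ConA+FICZ (log2 ratio −2.12, −2.35 to −1.88). *Hspe1* was at 288 and 34.4 CPM in the same cells, 8.37-fold lower in ConA+FICZ (−3.06, −3.79 to −2.39), and *Hspd1* at 236 and 38.9 CPM. The median UMIs per cell were 2287 and 2142, close to each other, and the granulocyte progenitor markers in this gate summed to 569 CPM in ConA+Veh (5 of 6 with a UMI) and 20.9 CPM in ConA+FICZ (1 of 6). Their part in this difference was not tested. Endothelial cells went the other way for *Hspa1*, with 243 CPM in Naïve and 361 CPM in ConA+Veh (log2 ratio 0.57, 0.01 to 1.16) in 43 and 65 cells. The 197 hepatocyte-gated cells of ConA+FICZ had 3 UMIs of *Hspa1* but 1650 CPM of *Hspe1*.

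Ordered by level in ConA+Veh, *Hspa1* was highest in endothelial cells (361 CPM), followed by phagocytes (161 CPM), B cells (118 CPM), neutrophils (77.6 CPM), NK cells (75.7 CPM) and T cells (26.0 CPM). The intervals of neutrophils overlapped those of both B cells and NK cells. Cycling cells made up 54.3% of the T cells, 12.9% of the B cells and 12.8% of the NK cells in this library. Outside the cycle, *Hspa1* was at 77.4 CPM in T cells and 147 CPM in B cells. The last place of T cells is thus an order over all their cells, and the part of the cycling share in it was not tested. The neutrophil level may rest on few cells. After the thinning described below, 91 neutrophils of ConA+Veh held 5 *Hspa1* UMIs, all in 1 cell. The thinned share of cells with *Hspa1a* was 1.10% in these neutrophils and 2.20% in T cells of ConA+Veh. The place of neutrophils above T cells is therefore an order of summed UMIs and was not seen in this share. The mitochondrial sum had another order, with T cells at 2245 CPM, B cells at 1582 CPM, phagocytes at 1392 CPM, NK cells at 903 CPM, endothelial cells at 841 CPM and neutrophils at 524 CPM. NK and endothelial cells did not differ beyond their counting intervals there. In Naïve, T cells were also first for the mitochondrial sum, at 958 CPM, but the intervals of B, endothelial and NK cells (469, 427 and 383 CPM) overlapped.

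Since depth differed between libraries, each cell was also thinned at random to 1000 UMIs before cells with a UMI of *Hspa1a* or *Hspa1b* were counted. Of the T cells, 10.9% (8.31 to 13.9) were positive in Naïve, 2.78% (1.79 to 4.11) in ConA+Veh, 1.30% (0.595 to 2.45) in ConA+TCDD and 5.33% (3.65 to 7.48) in ConA+FICZ, out of 505, 862, 694 and 582. The T cell intervals of ConA+Veh and ConA+TCDD overlapped, so no order between these libraries is read from the thinned share. Without thinning the T cell shares were 17.0%, 6.63%, 2.79% and 11.8%. Shallower cells, 31, 28, 23 and 13 in number, were left out. The share in ConA+FICZ was above that in ConA+Veh, although their *Hspa1* levels in CPM were alike, so no order between these libraries is read from the share. In B cells the thinned share was 9.24%, 6.80%, 1.84% and 10.5%. As a low reference, neutrophils of ConA+FICZ had a share of 0.873% (0.106 to 3.12) of 229 cells, at a median of 2142 UMIs, against 7787 UMIs in the T cells of that library. The interval of T cells in ConA+TCDD lay within that of this reference. Those of T cells in ConA+Veh, B cells in ConA+TCDD (0.742 to 3.75) and CD8 T cells in ConA+Veh (0.151 to 2.12) and ConA+TCDD (0.0872 to 2.57) overlapped it. No difference from the reference is therefore read from these shares. Neutrophils are another cell class and not empty droplets, so the reference does not measure background. The reference comes from 1 library, and neutrophils of the other libraries were too few for a narrow interval, with 20 to 91 cells.

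**Figure D4:**
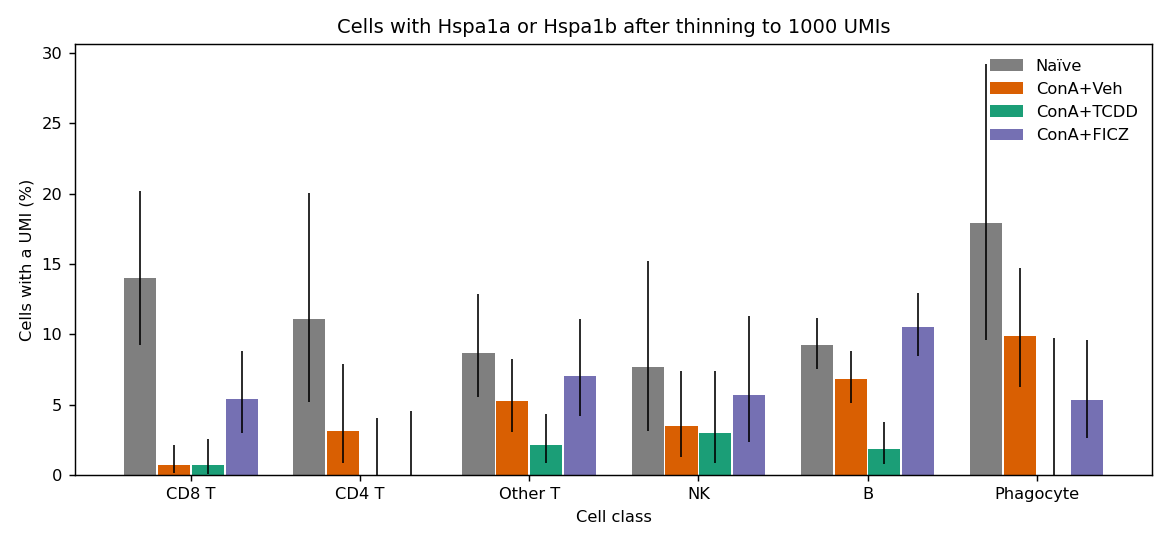
Share of cells, in percent, with a UMI of *Hspa1a* or *Hspa1b* after thinning to 1000 UMIs, by class and library, with exact 95% binomial intervals. In CD8 T cells the share was 14.0% in Naïve, 0.732% in ConA+Veh, 0.719% in ConA+TCDD and 5.36% in ConA+FICZ, and in phagocytes it ran from 17.9% in Naïve to 0% in ConA+TCDD (0 of 36 cells, interval up to 9.74%).

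The UMIs of *Hspa1* were concentrated in few cells. After thinning, the 5% of cells with the most held 74.3% of the *Hspa1* UMIs in Naïve T cells and 78.9% in Naïve B cells, and 90.9% in ConA+Veh B cells, where a cell held up to 17 UMIs. This measure also reflects how few cells were positive, and no value for an even spread was computed. It was 100% in T cells of ConA+Veh and ConA+TCDD, where under 5% of cells were positive. In T cells of ConA+TCDD no cell held more than 1 UMI. At least 3 UMIs were found in 14, 7, 0 and 5 T cells and in 32, 20, 1 and 15 B cells. In Naïve B cells, 43.8% of the cells with *Hspa1b* also had *Hspa1a*.

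Cells with an *Hspa1* UMI also held more *Dnajb1* than other cells of their class and library. In Naïve B cells, thinned cells with *Hspa1* had 612 CPM of *Dnajb1* and those without had 146 CPM (log2 ratio 2.06, 1.60 to 2.51, 98 and 963 cells). In ConA+Veh T cells the levels were 917 and 82.3 CPM (3.48, 2.71 to 4.19, 24 and 838 cells). *Hsph1* was higher in the same way in ConA+Veh T cells (2.02, 1.03 to 2.89) and B cells (2.19, 1.20 to 3.09), whereas in Naïve T cells its interval held 0 (0.57, −1.42 to 2.13), and it had 0 UMIs in the 31 positive T cells of ConA+FICZ. The immediate early gene *Jun* was higher too over all T cells, with log2 ratios of 1.09 in Naïve and 2.73 in ConA+Veh. In the Naïve T cells outside the CD8 and CD4 subsets, however, its interval held 0 (0.58, −0.03 to 1.13). Summed, the immediate early genes differed by less, at 0.26 (0.14 to 0.38) in Naïve T cells and 1.03 (0.77 to 1.29) in ConA+Veh. In Naïve B cells the sum had 0.12 (0.03 to 0.21), against 1.95 for *Jun*. In ConA+Veh T cells the interval of *Fos* held 0 (−0.92 to 2.42), but in Naïve T cells it did not (0.98, 0.45 to 1.48). The mitochondrial sum of positive over other cells differed by library, with −1.10 (−1.86 to −0.43) in T cells and 0.03 (−0.34 to 0.38) in B cells of ConA+Veh, but 0.62 (0.16 to 1.05) in Naïve B cells, where the abundant cytosolic sum was higher as well (0.67, 0.52 to 0.82). Positive T cells were the shallower ones before thinning, with a median of 3945.5 against 6811.5 UMIs in ConA+Veh, and the part of depth in these ratios was not tested.

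The companion genes of the chaperone network were described by lists. In T cells of ConA+Veh over Naïve, all 7 measured subunits of TRiC, the cytosolic chaperonin that folds actin and tubulin, lay above 0, with a median log2 ratio of 0.70 and a range of 0.58 to 0.84. The largest were *Cct5* (0.84), *Tcp1* (0.82) and *Cct2* (0.75), and 0 of 7 passed 2-fold. Of 6 prefoldin genes, whose product hands clients to TRiC, 5 lay above 0 (median 0.52). Of 10 genes for mitochondrial folding and proteolysis, 9 lay above 0 (median 0.39), and *Grpel1*, the exchange factor of mitochondrial HSP70, passed 2-fold (1.27). Over all genes counted, the quartiles of the log2 ratio were −0.54 and 0.43. The TRiC and prefoldin medians lay above them, and the mitochondrial folding median lay within them. Of 23 counted HSF1-linked co-chaperones and regulators, 2 (*Hspa4l* and *Cacybp*) passed 2-fold upward, a share near the 8.18% of all genes counted, and 0 downward, beside 10.0% (median 0.37), with *Hspa4l*, an HSP110 relative, at 1.42, *Cacybp* at 1.21 and the HSP70 to HSP90 adaptor *Stip1* at 0.94.

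B cells had the same direction for TRiC, with 7 of 7 above 0, a median of 0.95 and 3 past 2-fold (*Cct3* 1.05, *Cct5* 1.04 and *Cct8* 1.0). In their HSF1-linked list 3 of 22 passed 2-fold upward, among them *Cacybp* (1.61) and *Stip1* (1.22), beside 7.48% of all genes counted, and 1 downward (*Dnajb4*, −1.19), beside 14.5%. Mitochondrial folding genes had a median of 0.32, with *Grpel1* at 1.31. Prefoldin genes had a median of 0.30, with 3 of 6 above 0. The quartiles over all genes counted in B cells were −0.71 and 0.38. The mitochondrial folding and prefoldin medians lay within them, and the TRiC median lay above them.

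Immediate early genes, which encode rapidly induced regulators, followed *Hspa1a* and *Hspa1b* rather than the chaperonins between Naïve and ConA+Veh. In T cells 11 of 13 counted were at least 2-fold lower, beside 10.0% of all genes counted, and 0 higher, beside 8.18% (median log2 ratio −1.82), with *Jun* at −3.06, *Junb* at −2.52 and *Fos* at −2.41. In B cells 12 of 13 were at least 2-fold lower, beside 14.5% (median −1.96), with *Fos* at −3.77. These are ratios of CPM, and mean depth differed between the libraries. It was 3649 UMIs per T cell in Naïve and 10330 in ConA+Veh, and 2479 and 5797 UMIs per B cell. Per cell, these genes were therefore lower by less than in CPM, or not lower. The summed level of the immediate early genes in T cells was 7493 CPM in Naïve and 1893, 1719 and 1849 CPM after ConA. The sums of the 3 ConA libraries thus lay close to each other, unlike those of *Hspa1*. Enzymatic dissociation is also known to induce immediate early genes and *Hspa1a* and *Hspa1b*, and the handling of each library cannot be told apart from its treatment. Of the cold-inducible genes, *Cirbp* was lower after ConA (−2.06 in T and −2.20 in B cells), and *Rbm3* had −0.31 in both.

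Between the ligand libraries and ConA+Veh, few companions passed 2-fold, and few of all genes counted did. In T cells of ConA+TCDD, 0 of 24 HSF1-linked genes did (median 0.03), beside 0.253% of all genes counted higher and 0.568% lower. The TRiC median was 0.14 and the immediate early median −0.26, with *Atf3* at 1.11. The quartiles over all genes counted there were −0.230 and 0.109. The HSF1-linked median lay within them, the TRiC median above them and the immediate early median below them. The cold-inducible genes *Rbm3* (0.75) and *Cirbp* (0.69) lay above 0. In T cells of ConA+FICZ, 0 of 24 HSF1-linked genes passed (median 0.14), beside 0.375% of all genes counted higher and 0.850% lower. All 7 TRiC genes lay above 0 (median 0.226), as did all 10 mitochondrial folding genes (median 0.159). Over all genes counted there, the quartiles of the log2 ratio were −0.223 and 0.165. The HSF1-linked and mitochondrial folding medians lay within them, and the TRiC median lay above them. In B cells the TRiC medians were 0.19 in ConA+TCDD and 0.22 in ConA+FICZ, and the immediate early medians −0.17 and 0.30, with *Dusp1* at −1.06 in ConA+TCDD and *Fos* at 1.41 in ConA+FICZ. The B cell quartiles over all genes counted were −0.165 and 0.218 in ConA+TCDD and −0.144 and 0.208 in ConA+FICZ. In ConA+TCDD the TRiC median lay within them and the immediate early median close to the lower one. In ConA+FICZ both medians lay above them.

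Over the 19 combinations of class and library with at least 50 cells, the members fell into groups by correlation of log2(CPM + 10). Pearson's r was 0.92 between *Hspa1a* and *Hspa1b*, 0.94 between *Hsp90aa1* and *Hsp90ab1*, and 0.94 between *Hspd1* and *Hspe1*. *Hsph1*, stress-inducible by its regulation, correlated with *Hsp90aa1* at 0.86 and with *Hspe1* at 0.78 but with *Hspa1a* at 0.18, while *Dnajb1* correlated with *Hspa1a* at 0.54. *Hspa1a* and *Hspd1* had an r of −0.34. These points share 4 libraries and their depths, so the values are a description.

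**Figure D5:**
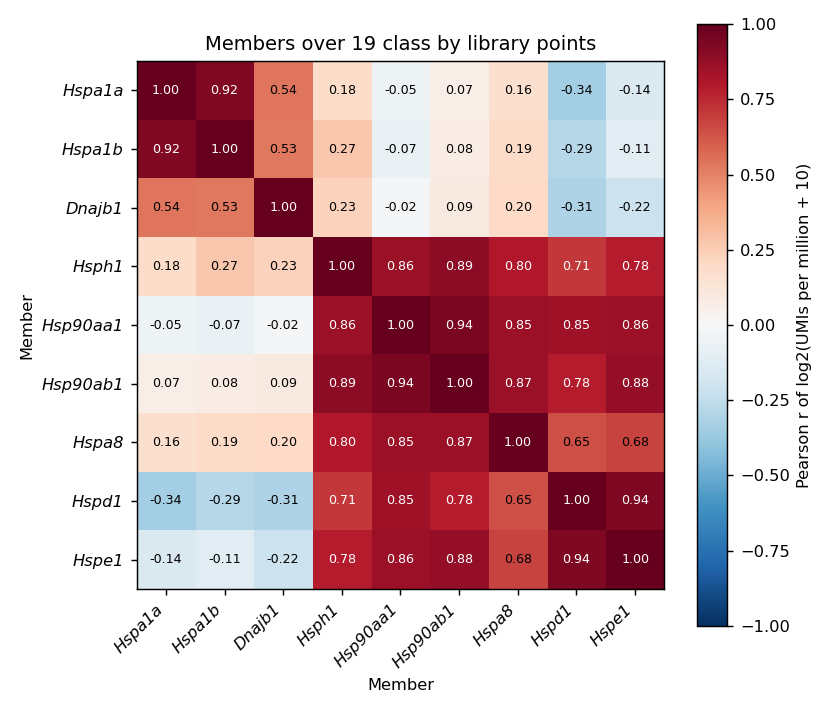
Pearson's r between the members over 19 combinations of class and library, on log2(CPM + 10), with the color scale giving r. *Hspa1a* and *Hspa1b* form a pair with r = 0.92, and *Hsph1* sits with the HSP90 and mitochondrial genes (r = 0.86 with *Hsp90aa1*).

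Among 5644 genes compared over the same points, the 5 closest to the abundant cytosolic sum were *Cct5* (r = 0.985), *Cdk4* (0.985), *Banf1* (0.985), *Snrpd1* (0.983) and *Ranbp1* (0.980). Those closest to the mitochondrial sum were *Mrpl15* (0.964), *Mrpl12* (0.962), *Tomm70a* (0.962), *Nudt19* (0.961) and *Cyc1* (0.958), of which *Mrpl15* and *Mrpl12* encode mitochondrial ribosomal proteins, TOMM70A imports proteins into mitochondria and CYC1 belongs to the respiratory chain. For *Hspa1* the closest were *Ifi203* (0.807), *Slc25a11* (0.792), *Jun* (0.785), *Napg* (0.780) and *Rhob* (0.776), and for the 4 stress-inducible genes together *Terf1* (0.851), *Itpr3* (0.842), *Kansl2* (0.840), *Ep400* (0.835) and *Mcrip1* (0.834). The highest r was lower for *Hspa1* than for the mitochondrial sum.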

How the data were processed

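Mononuclear cells of mouse liver were measured in 4 libraries. According to the submitters' processing notes, the authors used bcl2fastq and Cell Ranger with mm10, and the file headers name Cell Ranger 3.0.2. The deposited values are raw UMI counts per gene and cell barcode, without normalization. Depths and gates are given above, and precision is limited by counting and by 1 library per group. UMIs were summed over the cells of a class and divided by all its UMIs. Intervals were exact Poisson for levels, Clopper-Pearson for shares and conditional binomial for ratios. Cells that share a source vary more than these intervals cover. NK cells needed at least 2 of 7 NK markers and no *Cd3* UMI, and T cells a UMI of *Cd3d*, *Cd3e* or *Cd3g*. No doublet caller was run. Leaving out cells with another class's marker, or with a barcode found in another library, was chosen after seeing the data. Cells with under 1000 UMIs were left out of thinned shares. At most 3 companion genes were named per list and comparison, those with the largest absolute log2 ratios among genes whose libraries together held at least 100 UMIs. The members and lists were chosen with earlier results of these data known. Gene positions and coding sequences came from GENCODE, on GRCm38. *Hsp90aa1*, *Hsp90ab1* and *Hspa8* had no upstream sequence in the table used. Code was tested on simulated data and ran in Python 3.11.15 (matplotlib 3.10.9, pandas 2.3.3, scipy 1.17.1, numpy 2.4.6), with igraph 0.11.9, leidenalg 0.10.2 and scikit-learn 1.9.0 for clusters.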

Additional observations from a re-analysis of the deposited data

Results flagged for a closer look

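Several members had ratios against ConA+Veh that pointed one way in T or B cells and the other way in at least 1 other class, with intervals that excluded 0 on both sides. Each ratio compares 1 library with another, and the differences between classes were not tested. In ConA+FICZ over ConA+Veh, *Hspa1b* had a log2 ratio of 0.34 in B cells and −1.29 in mononuclear phagocytes, and *Hsph1* had 0.22 in T cells and −0.36 in phagocytes. *Hspd1* had 0.076 in T cells and 0.13 in B cells, against −0.78 in NK cells and −0.20 in phagocytes. *Hspe1* had 0.22 in T cells and 0.11 in B cells, against −0.65 in NK cells and −0.39 in phagocytes. *Hsp90ab1* had 0.044 in T cells and 0.054 in B cells, against −0.41 in NK cells and −0.28 in phagocytes. *Hsp90aa1* had 0.10 in B cells, against −0.061 in T cells, −0.39 in NK cells and −0.36 in phagocytes. Several of these T and B cell signs depended on the processing described below. With cells weighted equally, they turned for *Hsph1*, *Hspd1* and *Hsp90aa1* in T cells and for *Hspd1* and *Hsp90ab1* in B cells. Without cells holding another class's marker, they turned for *Hspa1b* in B cells and *Hsp90aa1* in T cells.

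In ConA+TCDD over ConA+Veh the opposite signs lay with NK cells. *Hsp90aa1* had 0.30 in B cells and 0.14 in phagocytes, against −0.26 in NK cells. *Hsp90ab1* had 0.099 in T cells and 0.15 in B cells, against −0.10 in NK cells, and *Hspe1* had 0.14 in T cells and 0.16 in B cells, against −0.30 in NK cells. The sign of *Hspe1* in B cells turned with cells weighted equally and also without cells holding another class's marker. The mitochondrial pair in NK cells rested on 620 UMIs in ConA+Veh, 368 in ConA+TCDD and 256 in ConA+FICZ, far fewer than in T or B cells.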

How the results depend on the processing

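No paired analysis was possible because each group had 1 library. For the same reason no sample could be left out, and the depth of each library limits its rare genes, such as *Hspa1b* in T cells of ConA+TCDD (15 UMIs). Each value below is a log2 ratio of CPM unless stated, and where 3 are given the first sets ConA+Veh against Naïve, the second TCDD against vehicle and the third FICZ against vehicle. Of the 36 ratios per class and comparison (the sums of *Hspa1* and of each group under each alternative), the sign was kept in T and B cells in 35 and 32 for ConA+Veh over Naïve, in 33 and 32 for ConA+TCDD and in 30 and 28 for ConA+FICZ. In ConA+Veh over Naïve the sums of the abundant cytosolic and the mitochondrial members stayed above 0 in T and B cells under every alternative, and *Hspa1* stayed below 0 in T cells, from −2.91 to −1.31. The cause of the shifts below was not tested.

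With cells weighted equally, as the mean over cells of UMIs per 10000, T cells gave −0.91, −0.70 and −0.058 for the stress-inducible sum and 1.11, 0.026 and 0.14 for the abundant cytosolic sum. The mitochondrial sum gave 1.74 (ConA+Veh over Naïve) and 0.073 (ConA+TCDD). B cells gave −0.21 (ConA+Veh) and 0.23 (ConA+FICZ) for the stress-inducible sum, 1.38, −0.0061 and 0.066 for the cytosolic sum and 1.87, −0.033 and −0.029 for the mitochondrial sum. Signs turned in ConA+FICZ T cells for *Hsph1* (−0.18), *Hsp90aa1* (0.021) and *Hspd1* (−0.16), in ConA+TCDD T cells for *Hspd1* (−0.010), in ConA+FICZ B cells for *Hsp90ab1* (−0.016) and *Hspd1* (−0.17), and in ConA+TCDD B cells for *Hspe1* (−0.10).

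With no correction for depth, as mean UMIs per cell, T cells gave 0.46, −0.39 and 0.29 for the stress-inducible, 2.45, −0.10 and 0.30 for the cytosolic and 2.73, 0.0019 and 0.37 for the mitochondrial sum. B cells gave 0.73 for the stress-inducible sum and 0.47 for *Hspa1* in ConA+Veh over Naïve, 2.51, −0.089 and 0.064 for the cytosolic and 2.98, 0.025 and 0.060 for the mitochondrial sum.

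With cycling cells left out, T cells gave −0.83, −0.81 and −0.15 for the stress-inducible, 0.84, 0.051 and 0.29 for the cytosolic and 1.07, 0.023 and 0.44 for the mitochondrial sum. B cells gave −0.34 (ConA+Veh over Naïve) and −1.04 (ConA+TCDD) for the stress-inducible sum. In the ligand comparisons they gave 0.028 and 0.15 for the cytosolic and 0.063 and 0.18 for the mitochondrial sum.

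With cells holding another class's marker left out, T cells gave −1.45, −0.16 and 0.31 for the stress-inducible, 0.87, 0.072 and 0.15 for the cytosolic and 0.95, 0.26 and 0.40 for the mitochondrial sum. B cells gave 0.45, −1.96 and −0.77 for the stress-inducible sum, −0.024 in ConA+TCDD for the cytosolic sum and 1.55, 0.0022 and 0.25 for the mitochondrial sum. In ConA+Veh over Naïve, B cells gave 0.39 for *Hspa1*, 0.29 for *Hspa1a* and 0.62 for *Hspa1b*. Signs also turned for *Hspa1b* in ConA+FICZ B cells (−1.07), *Hspe1* in ConA+TCDD B cells (−0.047) and *Hsp90aa1* in ConA+FICZ T cells (0.057).

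Leiden clusters in place of the gate gave −0.033 and 0.069 for the cytosolic and 0.043 and 0.14 for the mitochondrial sum in T cells of ConA+TCDD and ConA+FICZ. Without cells of under 200 genes or over 10% mitochondrial UMIs, the cytosolic sum in T cells was 0.99, −0.012 and 0.053. Without ribosomal protein and mitochondrial genes, T cells gave 0.046 (ConA+TCDD) and 0.11 (ConA+FICZ) for the cytosolic and 0.15 (ConA+TCDD) for the mitochondrial sum, and B cells 1.38 (ConA+Veh over Naïve) and 0.15 (ConA+FICZ) for the cytosolic sum.

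The share of cells with *Hspa1a* or *Hspa1b* without thinning was 17.0%, 6.63%, 2.79% and 11.8% in T cells and 12.3%, 11.8%, 4.71% and 21.6% in B cells. Thinned to 500 UMIs it was 7.09% in Naïve, 0.418% in ConA+TCDD and 3.03% in ConA+FICZ T cells, and for B cells the Naïve library had 7.05%, ConA+Veh 4.96% and ConA+FICZ 6.52%. At 1.5-fold, the genes counted as higher and lower were 18.9% and 22.9% in T cells and 17.4% and 30.5% in B cells for ConA+Veh over Naïve, 1.54% and 3.80% in T cells and 3.56% and 4.45% in B cells for ConA+TCDD, and 1.86% and 5.57% in T cells and 3.60% and 2.76% in B cells for ConA+FICZ. With at least 400 UMIs, the T cell shares were 5.95% lower for ConA+Veh over Naïve, 0.161% higher and 0.346% lower for ConA+TCDD, and 0.0915% higher and 0.526% lower for ConA+FICZ, and the B cell share higher for ConA+TCDD was 0.144%.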
